A study of Tupaia belangeri with 2 samples.

Results

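Cytoplasmic ribosomal protein genes were followed across the cell groups of whole brains of tree shrew (Tupaia belangeri) embryos, aged 4 to 5 postconceptional weeks. Of the 18543 gene names in the annotation, 110 have the form of a ribosomal protein name, in either the symbol style (RPL8, RPS15) or the protein database style (RL10, RS25). RL37 was left out beforehand, and the 83 names with at least 100 UMIs over both embryos were kept. UMIs are unique molecular identifiers, each of which marks 1 captured transcript. The 83 names comprise 49 of the large subunit, 33 of the small subunit and RPLP0 of the P stalk. The other 27 names had 71 UMIs at most, and 7 of them were listed at 0. All names are used as the annotation gives them.

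The study holds a single condition, with no treatment named in the labels, n = 2 embryos and a single 3′ tag library of the 10x Chromium kit made from each. The dura mater and blood vessels had been removed before the tissue was dissociated. Neither the sex of the embryos nor a strain is given in the sources used here. The libraries held 41868023 and 38077767 UMIs in 18926 barcodes, of which 17735 cells with at least 200 genes detected were used (8408 and 9327). The libraries shared 18 barcode sequences. The cells were clustered without any ribosomal protein gene among the variable genes and fell into 14 groups, of which 11 were named after marker genes and clusters 5, 6 and 11 stayed unnamed. The groups held between 192164 and 7649941 non-globin UMIs per embryo. Neuronal, glial and dividing cell markers were present, so the tissue label held, beside erythroid, microglia, endothelial, choroid plexus and meningeal fibroblast markers.

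Ribosomes are built from a large and a small subunit, each an assembly of ribosomal RNA with many small basic proteins, most of them needed in equal number. The messages for these proteins are among the most abundant of any growing cell, and they share a pyrimidine tract at their start (the terminal oligopyrimidine, or TOP, motif) through which mTOR signalling sets their translation. In the developing brain, ribosome production is known to be high in neural progenitors and to fall as neurons mature, and red cell precursors are known to be sensitive to the loss of single ribosomal proteins. Since the kit counts 1 tag per transcript, levels of different genes are given without division by length, as UMIs per 1000000 non-globin UMIs of a cell group (CPM).

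The 83 names took 27.0% of the non-globin UMIs of embryo 1 and 25.1% of those of embryo 2. They fell into a high and a low class with a gap between. The 50 abundant names held 99.7% of the ribosomal protein UMIs, from 38100 UMIs (RS15A) to 916494 (RPS15), and the other 33 had between 100 and 9420. The abundant names had a median of 1 gene model per name and the low names a median of 10. In 47 of the 50 abundant names, more than 99% of the UMIs lay in 1 model. The others were RL10 (62.4%, 3 counted models), RS15A (90.3%) and RPL23A (95.5%), so the levels of RL10 below are sums over models. The leading models of the abundant names lay, by their identifiers, on 23 chromosomes and 1 unplaced contig, and 8 of them on chromosome 28. The names with the most UMIs included RPS15, RL13, RPL19 (577591 UMIs) and RPS14 (571053 UMIs), and those with the fewest included RL4 (100 UMIs), RL35A, RS16 and RL30 (162 UMIs).

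Proteins named in both styles were thus mostly counted under 1 of their names. Of the 17 proteins that occur in both naming styles, 16 had at least 10 times more UMIs under one name than under the other. RPL6 and RL6 were an example of low names in both styles, with 2152 UMIs in 113 models and 5415 UMIs in 225 models. Other proteins had a low name and no abundant one, among them RL11 (320 UMIs, 2 models), RS10 (401 UMIs, 3 models) and RL35A (113 UMIs, 1 model). Whether the UMIs of such low names give the level of the gene so named was not tested, and their changes below carry this limit. Reads that match several copies equally are not assigned to any by the counting software, so the values of names with many copies are uncertain, and most of the text below rests on the 50 abundant names.

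The summed share of ribosomal protein UMIs differed between cell groups by over 10 percentage points. It was highest in cluster 6, with 33.2% in embryo 1 and 32.6% in embryo 2 (32.9% ± 0.475, SD, n = 2 embryos). Cluster 6 held 1283 cells with a median of 3690 and 3632 non-globin UMIs. Its leading genes included DBX1, JAG1, DLL3, PAX3 and CDKN1C, genes known from neural progenitors or newly committed cells. Past the limits for markers were 2 of radial glia, 1 of neurogenic progenitors and 1 of midbrain or thalamus neurons, and none of dividing cells. Cluster 11 followed with 31.9% and 30.9% (31.4% ± 0.677). Its 402 cells were led by the embryonic globins HBE1, HBG1 and HBZ, and globins made up 34.2% and 30.2% of their UMIs.

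The next 7 groups lay close together. Microglia-like cells, the immune cells of the brain, had 29.1% ± 1.38 and radial glia-like cells, the stem cells of the neural tube, had 28.9% ± 1.35. Choroid plexus-like cells had 31.1% in embryo 1 and 25.9% in embryo 2, the widest gap between the embryos. Globins made up 5.82% and 0.0819% of the UMIs of these cells, and the part of this difference in the gap was not tested. Erythroid-like cells had 28.3% ± 0.906, endothelial-like cells 27.9% ± 0.441, cortical excitatory neuron-like cells 27.8% ± 1.36 and meningeal fibroblast-like cells 26.9% ± 0.478. The ranges of neighbours in this order overlapped. Radial glia-like cells comprised 2 clusters. The larger (916 and 746 of the 1133 and 965 cells) was led by genes known from DNA synthesis, among them UNG, DYR, MCM3, MCM4 and MCM5, and although 9 radial glia markers passed the limits in it, its 10 leading genes included none of them.

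The lower groups were dividing cells and neurons. Dividing cell-like cells had 25.1% ± 1.25, inhibitory neuron-like cells 24.8% ± 1.68, midbrain or thalamus excitatory neuron-like cells 24.3% ± 0.702 and nascent inhibitory neuron-like cells 23.0% ± 1.32. Cluster 5 came last, with 20.8% and 19.5% (20.1% ± 0.922). It held 1519 cells led by NFL, NEFM, TAU and SCN2A, genes known from axons and excitable membranes, and it stayed unnamed because markers of granule neurons and of midbrain or thalamus neurons tied in it. The ranges of neighbours were separate only after cluster 6, cluster 11, meningeal fibroblast-like cells and nascent inhibitory neuron-like cells. The share was higher in embryo 1 in 14 of 14 groups, by 0.624 to 5.16 percentage points, and the order of the groups was alike in the embryos (Spearman's rho 0.899 over 14 groups, a description).

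**Figure D1:**
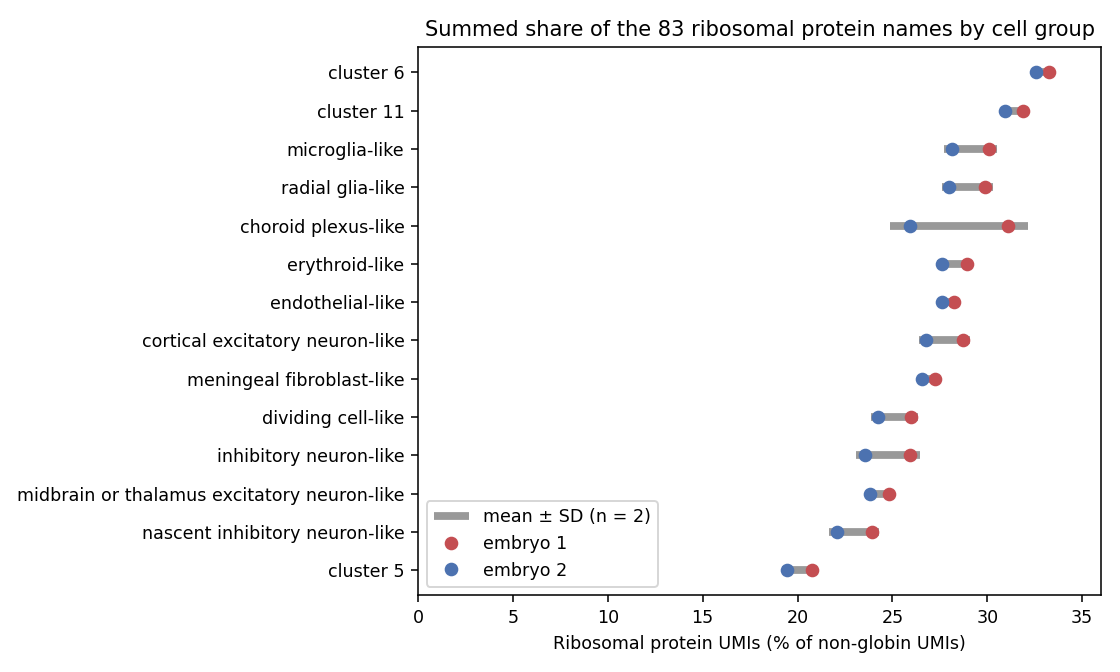
Share of non-globin UMIs (x axis, %) taken by the 83 ribosomal protein names in each of 14 cell groups (y axis). Points are the embryos and grey bars the mean ± SD (n = 2). Cluster 6 lies at 32.9% and cluster 5 at 20.1%, and the red points of embryo 1 lie to the right in 14 of 14 groups.

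Depth moved with the share. In 20 of the 23 pairs of group and embryo that held at least 20 cells in both bands, cells under 2000 non-globin UMIs had a lower share than cells with 2000 to 6000. In inhibitory neuron-like cells the share was 20.7% against 27.3% in embryo 1 and 19.0% against 25.2% in embryo 2. Nascent inhibitory neuron-like cells had 21.1% against 24.9% and 19.1% against 23.2%. Microglia-like cells went the other way in both embryos, with 31.5% against 29.9% and 29.2% against 27.2%. Barcodes with fewer than 200 genes, which were not used as cells, had a share of 34.0% and 32.1% and consisted of globin for 92.7% and 94.4% of their UMIs. Their part in the shares of the cell groups was not tested.

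Within the sum, the small and large subunit kept nearly the same proportion. The ratio of small subunit to large subunit UMIs, with RPLP0 counted in the large one, was between 0.825 and 0.868 in 13 groups. Erythroid-like cells stood apart at 0.786 ± 0.00262 (0.788 and 0.784 in the embryos), below the range of each other group. RPLP0, counted here in the large subunit, was itself highest in erythroid-like cells, at 15329 CPM (mean of the embryos) against 5462 in cluster 5, its lowest group. The ratio without RPLP0 is not given. Whether the other proteins of the 2 subunits were out of proportion in erythroid-like cells was not tested.

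The embryos differed less in single members than the groups did. Over the 50 abundant names, the level in embryo 2 was between 0.734 (RS19) and 1.18 (RPS28) times that in embryo 1.

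**Figure D2:**
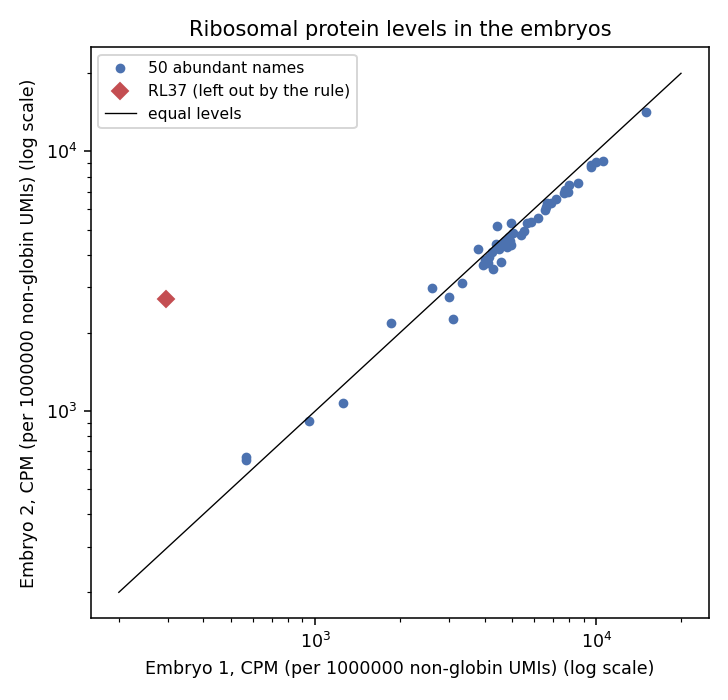
Levels of the 50 abundant names (circles) over all cells in embryo 1 (x axis) and embryo 2 (y axis), in CPM on log scales, with the line of equal levels. The circles follow the line, and RL37 (diamond), left out by the rule, lies 9.18 times higher in embryo 2.

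Single members followed the sum in different degree. Over the 50 abundant names, the ratio of the highest to the lowest group level had a median of 2.06 and ran from 1.501 (RPL19) to 3.23. Of these names, 18 were highest in cluster 6, 15 in cluster 11, 8 in erythroid-like cells and 5 in endothelial-like cells, and 32 were lowest in cluster 5. RPS6, the small subunit protein that S6 kinases phosphorylate in response to growth signals, was highest in cluster 11, with 9927 and 9226 CPM, and lowest in cluster 5, with 4996 and 4562.

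Among names with at least 1000 UMIs, the 5 whose levels varied most over the groups were low names with several models: RL35, RL31, RPL6, RL6 and RL5. RL35 was the clearest. It had 554 and 577 CPM in microglia-like cells and only 7.85 and 10.4 in cortical excitatory neuron-like cells. Endothelial-like cells (140 and 187), erythroid-like cells (140 and 137), cluster 11 (129 and 229) and meningeal fibroblast-like cells (92.0 and 141) lay between, and in the other groups RL35 stayed between 7.01 and 28.1. Of the 1734 UMIs of RL35, 88.4% came from 1 model, which gave all 127 and 162 of its UMIs in microglia-like cells. The symbol-style name RPL35, the abundant record of this exit tunnel protein, showed no such pattern. Its levels ran from 5290 in cluster 5 of embryo 2 to 11748 in erythroid-like cells of embryo 1, with 8193 and 7664 in microglia-like cells.

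In paralogue pairs, a near copy of a ribosomal protein gene can take its place. In the pairs given here, most of the UMIs were counted under 1 of the names. Whether the low counts give the level of the gene so named was not tested, so the use of the partners by the cells was not tested either. The UMIs of RL36A, for example, were spread over 7 counted models. RPL36AL, a name outside the rule, had 68088 UMIs against 504 for RL36A. RPL36AL reached 3510 and 3185 CPM in cluster 11, against 702 and 754 in erythroid-like cells, and the other 12 groups lay between 925 and 1462. RPS4X had 296015 UMIs against 9420 for RS4, but the names do not tell whether RS4 is a paralogue or another record of the same protein. RPL3L, the muscle copy of RL3, had 34 UMIs in all, RL10L, known from testis, had 12 and RL22L had 70.

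The make-up of the ribosomal protein UMIs was examined next, as the share of each abundant name among them relative to its median over the 14 groups. This measure does not depend on how the groups are scaled to each other. Names were counted when they differed from the median by over 0.5 on the log2 scale in the same direction in both embryos. This count was 0 of 50 in 10 of the 14 groups, which included all 5 neuronal groups. The neuronal and progenitor groups weigh heavily in the median over groups, so a low count in them is partly set by the measure. The share of all genes past the same limit is not given. It was 9 higher and 10 lower in cluster 11, 5 higher and 8 lower in erythroid-like cells, 3 higher in endothelial-like cells (RPL4, RL10 and RPS28) and 1 higher in meningeal fibroblast-like cells (RPS27). The names below were chosen by this count after their values were seen, so they are described and not tested.

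Erythroid-like cells and cluster 11, both rich in globin, departed in different names. In erythroid-like cells RPLP0, the base of the stalk that recruits elongation factors, took 5.41% and 5.44% of the ribosomal protein UMIs, against a median over groups of 2.67% and 2.70%. RS11 took 3.33% and 3.103% (medians 1.89% and 1.81%), and RPL35, RS20 and RPL28 were also over the limit. Names under it included RPL4, RPS3A, RPL5, RPL27, RL7, RL22 and RL10, which joins the large subunit at a late step, at 0.991% and 1.02% against medians of 1.75% and 1.76%.

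In cluster 11 the names over the limit were RPL24, RPS24, RL26, RS25, RS19, RPS27, RS11, RPL21 and RPL27. RPS24 took 4.37% and 4.90% (medians 2.45% and 2.48%), and RS19 took 1.96% and 1.39% (medians 1.12% and 0.876%). RS25 reached 16299 and 15638 CPM, whereas RS25 stayed between 5891 and 10236 in the other groups. RPS15, the most abundant member, was lowest here, at 6906 and 6250 CPM against 19094 and 18810 in cluster 6. RPS15 took 2.17% and 2.02% of the ribosomal protein UMIs of cluster 11 (medians 5.47% and 5.54%). Names under the limit also included RL22, RL3, RPL10A, RPS12, RL18, RPL29, RPS4X and RL13. RS11 was the only name over the limit in both groups, and RL22 was among those under it in both.

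**Figure D3:**
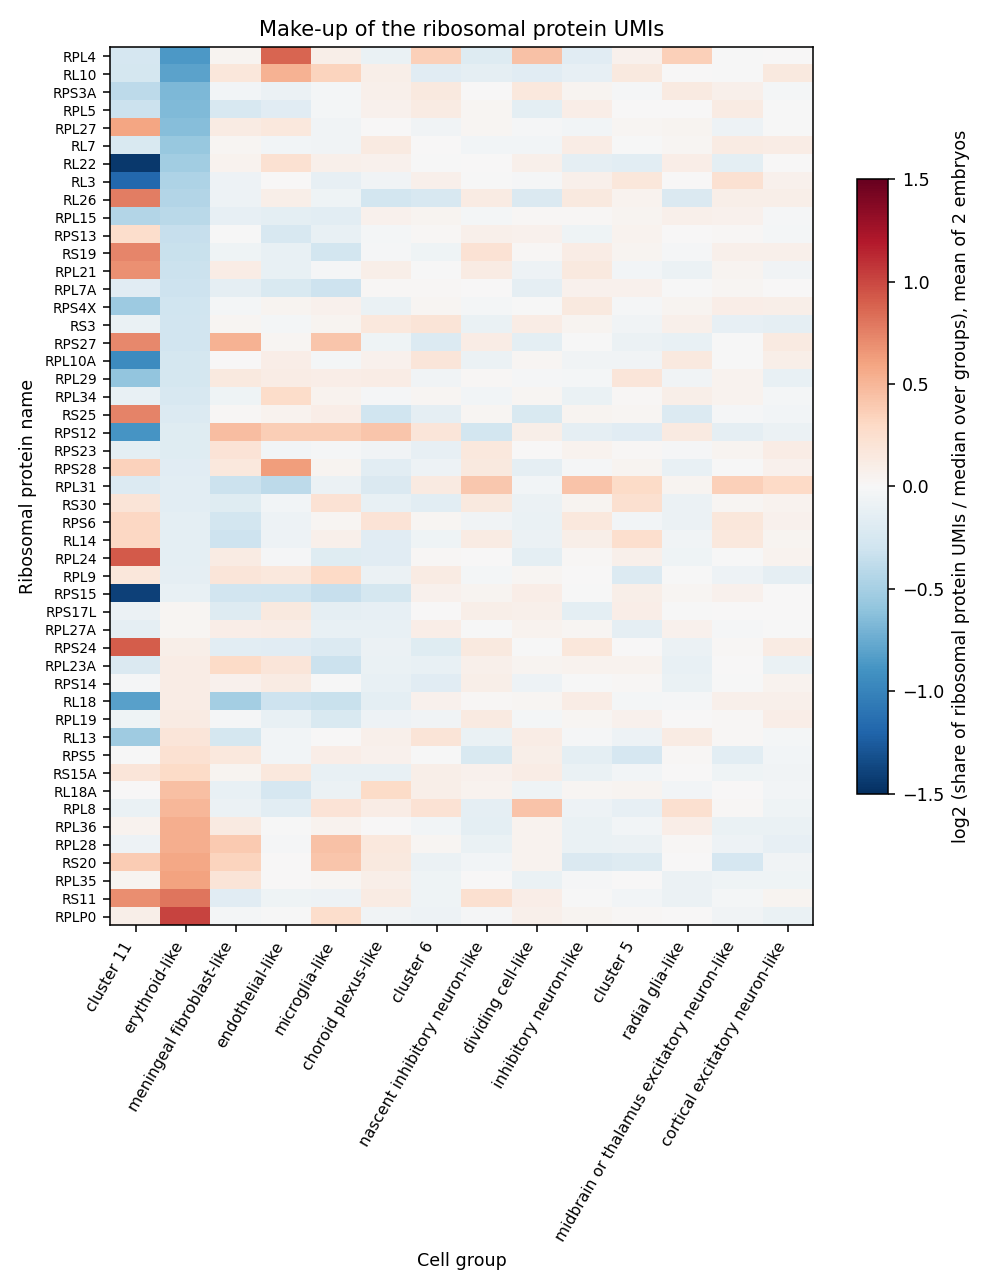
Share of 49 of the 50 abundant names (rows) among the ribosomal protein UMIs of 14 cell groups (columns), as the log2 ratio to the median over groups, mean of 2 embryos. Strong colours gather in cluster 11 and in erythroid-like cells, where RPLP0 is highest (log2 ratio 1.01), and the neuronal columns are pale.

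**Figure D4:**
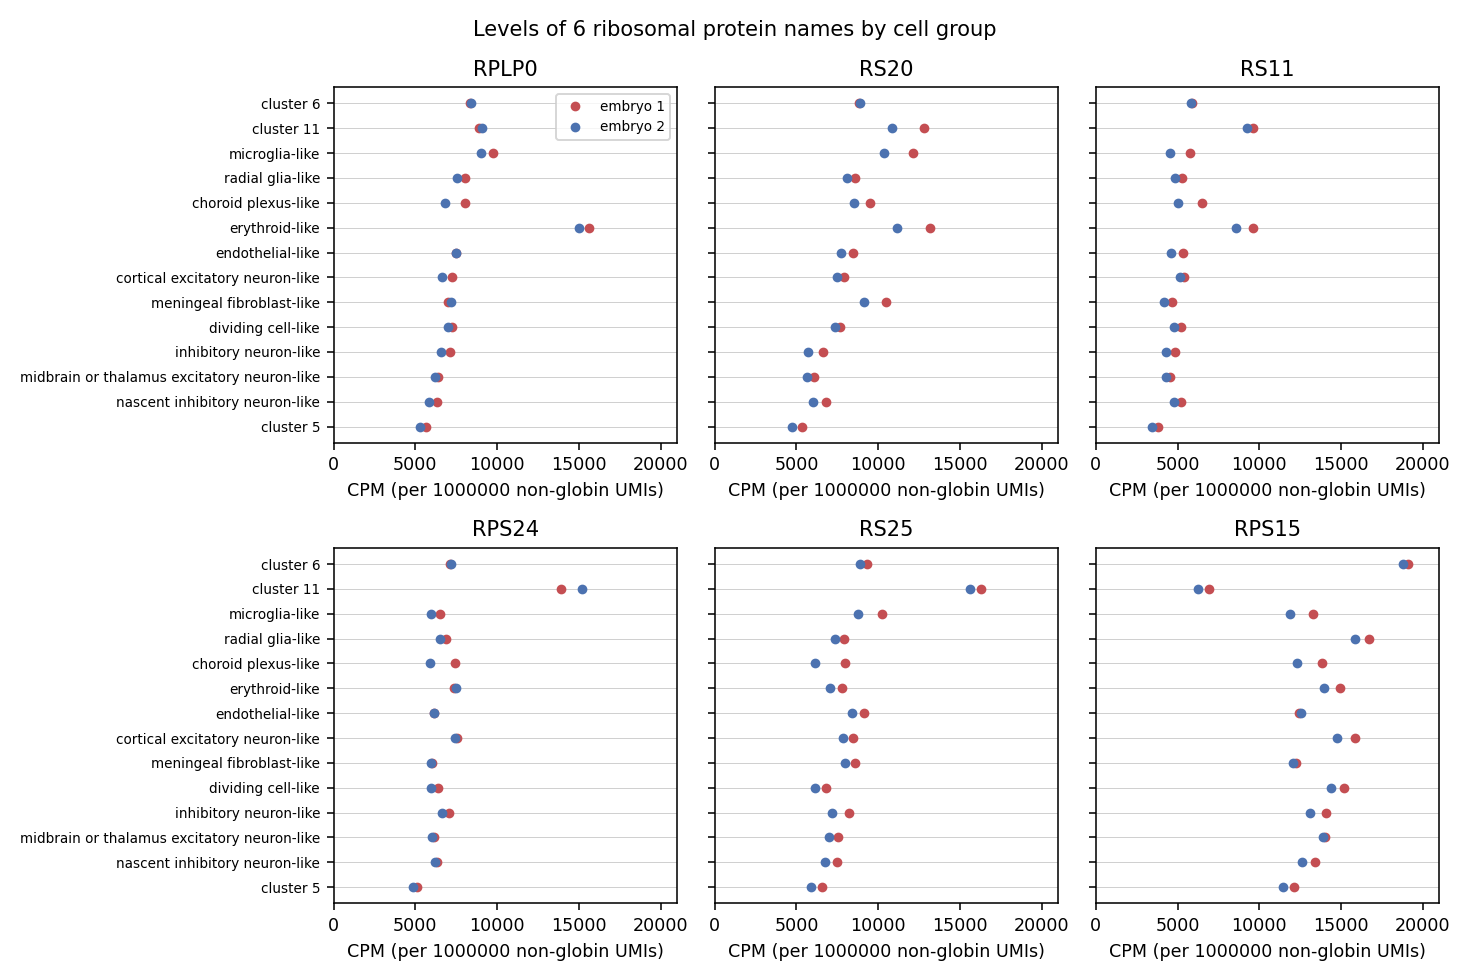
Levels (x axis, CPM) of RPLP0, RS20, RS11, RPS24, RS25 and RPS15 in 14 cell groups, 1 point per embryo. RPLP0 stands apart in erythroid-like cells, RPS24 and RS25 are highest and RPS15 is lowest in cluster 11, and RS11 is high in both.

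Tests were made for 6 comparisons of named classes. UMIs were summed per embryo and group and tested with edgeR's quasi-likelihood method, with the embryo as a block, over 10515 genes with Benjamini-Hochberg adjustment and a threshold of 0.05. All 83 names passed the filter on low counts. The comparisons share cell groups, 3 of them the same neuron-like mean, and are not independent. The cells of both sides came from the same 2 brains. With the embryo as a block, p-values rest on how far group differences varied between these 2 embryos, with the spread estimated over all groups. They do not measure the spread over a wider set of animals. Each count was set beside that under TMM scaling (trimmed mean of M-values), in which most genes are taken as unchanged. Shares called among all genes are given only for the edgeR fit with non-globin totals, the block and the adjusted p. Counts under TMM or DESeq2, at an unadjusted p or without the block therefore have no such share beside them. The same holds for counts with globin in the totals, in other sets of cells or in other clusterings. None of these counts can be judged against a share of all genes.

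**Figure D5:**
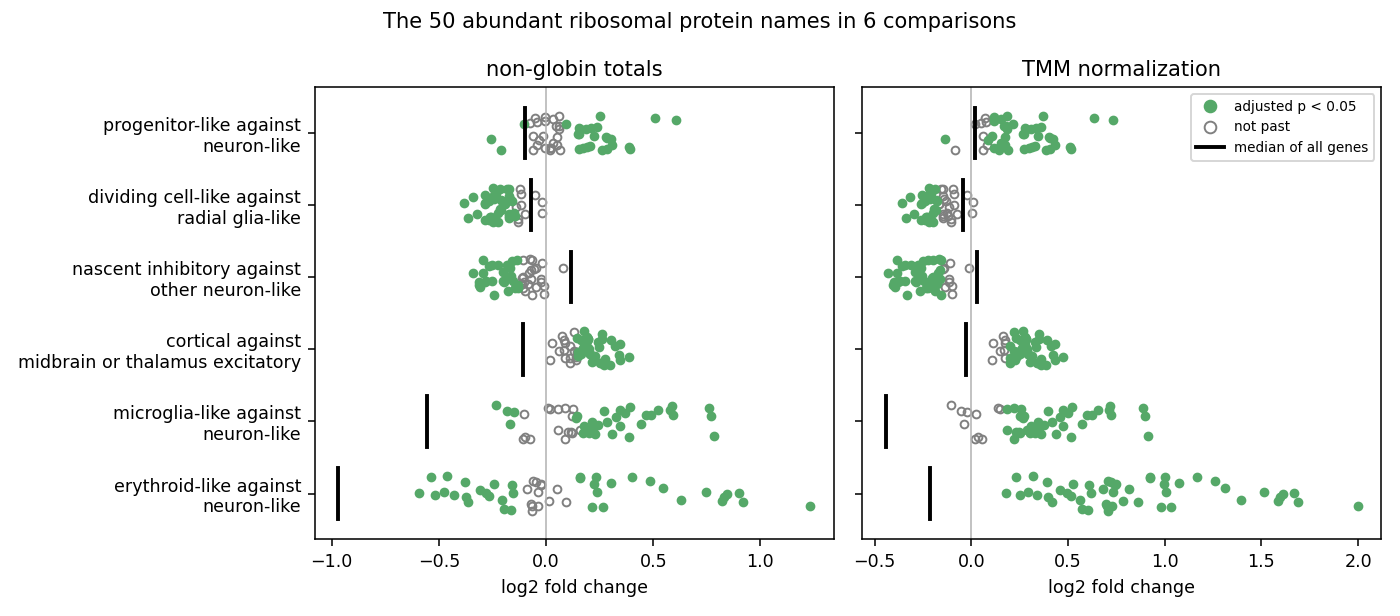
Log2 fold changes (x axis) of the 50 abundant names in 6 comparisons (y axis), scaled to non-globin totals (left) or with TMM (right). Filled points passed an adjusted p of 0.05, open points did not, and black bars mark the median of the 10515 genes tested. In the erythroid comparison the points are spread around 0 on the left and lie above 0 on the right.

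The first comparison set progenitor-like cells (the mean of radial glia-like and dividing cell-like) against neuron-like cells (the mean of the 4 neuron-like classes). Clusters 6 (32.9%) and 5 (20.1%), the highest and lowest in summed share, were unnamed and lay outside this comparison. Ribosomal proteins took 27.9% and 26.1% of the non-globin UMIs of progenitors and 25.9% and 24.1% of those of neurons, a log2 ratio of 0.11 ± 0.0040. RPL4, a large subunit protein that reaches into the exit tunnel, had 1133 and 1125 CPM in progenitors and 763 and 721 in neurons (log2 fold change 0.61, SE 0.036, adjusted p = 2.02e-41). RPL8 had 6315 and 5909 against 4478 and 4113 (log2 fold change 0.51, SE 0.034). The averages of progenitors and neurons did not overlap in either gene, both named for a large rise. The share of all genes without overlap is not given. RPLP0 rose less (0.19, SE 0.034), and RPS6, at -0.06, did not pass.

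Of the 83 names, 29 were higher and 10 lower in progenitors, whereas of all genes tested 28.3% were higher and 37.2% lower (65.5% in either direction). Among the 50 abundant names 24 were higher and 3 lower. The median log2 fold change was 0.07 over the members and -0.10 over all genes. Under TMM, which moved the median of all genes to 0.02, 51 were higher and 6 lower, with a member median of 0.19. The 29 names called higher were called higher with DESeq2 as well. DESeq2 moved the values up (RPL4 to 0.73), so this agreement is not a separate test. Low names led the fall, with RL30 at -1.23 (162 UMIs in all), RL15 at -0.71, RL6 at -0.65, RL36 at -0.61 and RS6 at -0.46, and RL32 (0.57), RS10 (0.50) and RL36A (0.48) were low names that rose. RS10 and RL36A did not pass without the block by embryo, nor did RL36, RL15 and RS6 with DESeq2. RL15 was at -0.47 in embryo 1 alone and at -0.87 in embryo 2 alone. In cells with 2000 to 6000 non-globin UMIs the log2 ratio of the summed share was 0.03, and 24 members were higher and 19 lower. At a finer clustering (resolution 1.0) the log2 ratio was 0.07.

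The other genes of the ribosome pathway were counted in the same fit, beside the 28.3% higher and 37.2% lower among all genes. Of 33 ribosome biogenesis genes tested, 20 were higher and 4 lower (median log2 fold change 0.33), among them LYAR (1.25), NOP56 (0.91) and DKC1 (0.90), which process ribosomal RNA, whereas the assembly factor WDR12 was lower (-0.96). Of 58 mitochondrial ribosomal proteins, which serve a separate ribosome, 27 were higher and 10 lower. Of 25 translation initiation and elongation factors 8 were higher and 5 lower, and of 13 growth signalling genes 3 and 3. Among 18 other TOP genes 4 were higher and 9 lower, with a median log2 fold change of -0.12 against -0.10 over all genes. The list of TOP genes includes VIM, also a radial glia marker, so its direction in this comparison and the next is not independent of the naming. Under TMM 4 of them were higher and 7 lower, and with DESeq2 6 and 7.

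Within the progenitors, ribosomal proteins took a smaller share of the UMIs of dividing cell-like cells than of radial glia-like cells, most of which lay in the cluster led by genes of DNA synthesis. The summed share was 26.0% and 24.2% against 29.9% and 28.0%, a log2 ratio of -0.21 ± 0.0045. This is a share and not an amount per cell, since the median dividing cell held more non-globin UMIs (4699.5 and 4843 against 3793 and 3991). RL10 had 4060 and 3738 CPM in dividing cells and 5195 and 4974 in radial glia (log2 fold change -0.38, SE 0.055, adjusted p = 6.5e-10). RPL5, which binds both a ribosomal RNA and MDM2, fell by 0.37 on the log2 scale (SE 0.055). RPS6 fell by 0.21, while RPLP0, at -0.13, did not pass.

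Of the 83 names 43 were lower and 0 higher, against 14.1% lower and 10.8% higher among all genes (24.9% in either direction), and 40 of the 43 were abundant names. At an unadjusted p under 0.05, 55 were lower and 1 higher. TMM and DESeq2 gave 30 lower and 0 higher each, and 25 names were lower in all 3. RL12 (-0.90), RL11 (-0.76) and RPL6 (-0.37) were low names that fell, none of which passed with DESeq2. Of the 18 other TOP genes 12 were lower and 0 higher (1 higher at an unadjusted p under 0.05, 0 with DESeq2), and of 33 biogenesis genes 8 were lower and 1 higher. Without the block by embryo the count of lower members was 8. In cells with 2000 to 6000 non-globin UMIs the log2 ratio was -0.28.

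Nascent inhibitory neuron-like cells, defined by DLX2 and DLX5 among others, had a lower ribosomal protein share than the average of inhibitory, cortical and midbrain or thalamus neuron-like cells (23.9% and 22.1% against 26.5% and 24.7%, a log2 ratio of -0.15 ± 0.013). RPS6 had 5652 and 5178 CPM against 7147 and 6582 (log2 fold change -0.34, SE 0.048, adjusted p = 3.74e-10). RPS12 and RL7 each fell by 0.31. Of the 83 names 29 were lower and 2 higher (RL35, 1.22, and RL6, 0.55), against 4.99% lower and 13.2% higher among all genes (18.2% in either direction). All 29 were lower under TMM and DESeq2 too, which called 44 and 46 lower. Both scalings moved the values down (RPS6 to -0.43 and -0.45), so this agreement is not a separate test. RPLP0 was also lower (-0.13, SE 0.047, adjusted p = 0.0284 with edgeR). Of the other TOP genes 8 of 18 were lower and 1 higher. Without the block 10 members were lower, and in cells with at least 1000 genes, clustered anew, 14 were lower and the log2 ratio was -0.06.

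Cortical excitatory neuron-like cells had a larger share than midbrain or thalamus excitatory neuron-like cells (28.7% and 26.8% against 24.8% and 23.8%, a log2 ratio of 0.19 ± 0.029). RS20, a protein of the small subunit head, had 7895 and 7481 CPM in cortical and 6100 and 5665 in midbrain or thalamus cells (log2 fold change 0.39, SE 0.057, adjusted p = 3.35e-09). RL10 (0.34), RL22 (0.34) and RPS27 (0.32) rose likewise, of which RL22 and RPS27 did not pass without the block. In all, 34 names were higher, each an abundant one, and 1 was lower (RPL6, -0.96), against 7.12% higher and 13.4% lower among all genes (20.5% in either direction). TMM gave 43 higher and 1 lower, and 33 were higher in all 3 scalings. TMM and DESeq2 moved the values up (RS20 to 0.47 and 0.48), so this agreement is not a separate test.

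This result changed with the clustering. At resolution 1.0 the midbrain or thalamus name fell to 1 cluster of 320 cells, while 1409 cells with its markers stayed unnamed, and the cortical cluster held 395 and 399 cells in place of 545 and 511. The direction turned: 35 members were lower and 0 higher in cortical cells and the log2 ratio was -0.21. Without the block 4 members were higher and 1 lower.

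Microglia-like cells (157 cells) had a share of 30.1% and 28.1% against 25.9% and 24.1% in neuron-like cells (log2 ratio 0.23 ± 0.0048). RS20 had 12102 and 10352 CPM against 6829 and 6176 (log2 fold change 0.79, SE 0.049, adjusted p = 1.86e-38), RPL28 rose by 0.77, RPS12 by 0.76 and RL10 by 0.59. RL35 rose by 5.29 (SE 0.16), from 12.2 and 16.5 CPM in neurons. In all, 31 members were higher and 7 lower, against 13.7% higher and 20.5% lower among all genes (34.2% in either direction), and TMM gave 42 and 2. RL6 (-1.20), RL31 (-1.47) and RL21 (-0.87), low names with many models, were lower, of which RL31 and RL21 did not pass with DESeq2. RL31 was at -0.83 in embryo 1 alone and at -1.65 in embryo 2 alone. RL18 (-0.18) and RPL31 (-0.23) were lower with non-globin totals, did not pass under TMM (-0.05 and -0.10) and turned to higher with DESeq2 (0.25 and 0.20). The stalk proteins RLA1 and RLA2, outside the rule, were higher along with RPLP0 (0.88, 0.43 and 0.52). In cells with 2000 to 6000 non-globin UMIs 19 members were higher and 1 lower, and the log2 ratio was 0.15. This band held only 21 microglia-like cells in each embryo.

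Erythroid-like cells, red cell precursors whose UMIs were 88.5% and 87.8% globin, had a share of 28.9% and 27.6% of the non-globin UMIs, against 25.9% and 24.1% in neuron-like cells (log2 ratio 0.18 ± 0.027). In cells with at least 1000 genes, clustered anew, the log2 ratio was 0.043, and 13 members were higher and 6 lower. Globin UMIs were left out of all totals. With them, the log2 ratio was -2.88 and 81 members were lower. RPLP0 had 15638 and 15022 CPM against 6771 and 6288, the largest rise among the abundant names (log2 fold change 1.23, SE 0.043, adjusted p = 5.54e-78). RS11 rose by 0.92 (9626 and 8573 against 4994 and 4618) and RS20 by 0.90. Both other stalk proteins rose as well: RLA1 by 1.73 and RLA2 by 0.75. Erythroid-like cells did not overlap with the neuron-like mean in any of these genes, and the share of all genes without overlap is not given.

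The count of members depended on the scaling. With non-globin totals 22 names were higher and 26 lower, against 7.37% higher and 43.8% lower among all genes (51.1% in either direction). TMM moved the median of all genes from -0.97 to -0.22 and gave 54 members higher and 1 lower, and DESeq2 gave 57 higher and 0 lower. The 22 names were higher under all 3 scalings, and 0 were lower under all 3. TMM and DESeq2 moved the values up here, RPLP0 to 2.00 and 2.19 and RL6 to -0.42 and -0.25. Names higher with non-globin totals were thus almost bound to stay higher, and the agreement is not a separate test. The 22 names included RPLP0, RS11, RS20, RPL28, RPL35, RPL19, RPS14, RPS24 and, among the low names, RL35 (3.33) and RS2 (1.90). RS2 had 928 UMIs spread over 15 counted models. RL6 (-1.20), RL31 (-1.30), RL5 (-1.34) and RL21 (-1.43) were lower with non-globin totals, and of these RL21 alone passed under TMM (-0.64) and none with DESeq2. Embryos 1 and 2 alone gave -1.44 and -0.74 for RL31, and -0.95 and -2.14 for RL5. The folds of RL5 rest on few UMIs, since its mean level in erythroid-like cells was 8.29 CPM in totals of 1050420 and 387207 non-globin UMIs. RL15 had 0 and 2 UMIs in erythroid-like cells, and no fold is given.

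The counts of other translation genes in erythroid-like cells depended on the scaling too. With non-globin totals 25 of 33 biogenesis genes were lower and 0 higher (27 and 0 at an unadjusted p under 0.05, 3 lower and 1 higher with DESeq2). In the same fit 22 of 25 translation factors were lower and 1 higher, and 38 of 58 mitochondrial ribosomal proteins were lower and 3 higher. Among all genes 43.8% were lower and 7.37% higher, with a median log2 fold change of -0.97. The list medians lay near it, at -0.92 (biogenesis), -0.89 (translation factors) and -0.89 (mitochondrial ribosomal proteins). Translation factors were 3 higher and 4 lower with TMM and 4 and 1 with DESeq2, and mitochondrial ribosomal proteins 6 and 4 with TMM and 6 and 1 with DESeq2. Of the 18 other TOP genes 5 were higher and 12 lower, with a median log2 fold change of -0.46. The higher ones included RACK1 (0.31), a scaffold protein of the small subunit, and the lower ones ROA1 (-1.15), a TOP-class RNA-binding protein gene. Under TMM 9 of these 18 were higher and 2 lower, and with DESeq2 9 and 0.

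Outside the members, the genes whose levels over the 14 groups were most like the summed share were sought among 6044 genes with at least 500 UMIs. RLA2 came first (Pearson's r 0.858), followed by ALDH16A1 (0.831), RACK1 (0.799), MXRA5 (0.783) and EF1D (0.781). ALDH16A1 and MXRA5 had 308577 and 338436 UMIs, within the range of the abundant members. Whether the UMIs under these names come from the genes so named was not tested. The median r was 0.661 for the abundant members, which are part of the sum, 0.04 for the low members and -0.36 for all other genes. The groups share libraries and depth, so these values are a description over 14 points.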

How the data were processed

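Single-cell RNA-seq was measured in 2 tree shrew embryonic brains. The authors ran fastp and Cell Ranger 3.1.0 against the TS_2.0 assembly, per the labels and the study's methods, and deposited raw UMI counts per gene model and barcode, without normalization. The tables hold as many barcodes per embryo as the study's methods count cells, and its main text gives a larger number. Gene models of 1 name were summed and the 8 globin names left out of totals.

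Cells with at least 200 genes were scaled to 10000 UMIs and log-transformed. The 2000 variable genes, 20 components, 20 neighbours and leidenalg 0.10.2 at resolution 0.5 gave the clusters (scanpy 1.11.5, scikit-learn 1.9.0, Python 3.11.15). Ribosomal protein and listed genes were held out of the variable genes, but VIM, a listed gene that is also a marker, was not. A cluster was named when at least 3 markers of a type were at least 2 times higher and in at least 10% of its cells. Ties, and clusters led by markers of another type, stayed unnamed. Doublets were kept, since Scrublet called only 1 cell per embryo and so did not work.

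UMI sums per embryo and group went into edgeR 4.0.16 under R 4.3.3 (filterByExpr, quasi-likelihood, embryo block, Benjamini-Hochberg adjustment, threshold 0.05, biological coefficient of variation 0.0319). The groups of 1 embryo come from the same animal, which is the source of the pairing. Differences between the embryos correlated between pairs of groups with a median r of 0.409 (0.029 to 0.83, 900 genes with at least 10000 UMIs, 91 pairs). In data simulated with 200 changed genes, 4-fold changes were recovered in 75% (microglia, 9665 genes tested) to 100% (progenitors, 9658 genes tested) and 1.5-fold changes in 0.5% (microglia, 9692 genes tested) to 91% (progenitors, 9664 genes tested). The changed genes were all lower in level than the abundant members, and the simulated spread was wider than the fitted one. These rates therefore do not describe the abundant members.

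For each comparison, the members named were the 5 with the largest rise and the 5 with the largest fall past the threshold and alike in direction in both embryos. Overall they were the 5 highest, the 5 lowest and the 5 most variable with at least 1000 UMIs, beside RPLP0, RPS6 and paralogues, and from each other list genes among the 3 with the largest change. Others were chosen after their values were seen (RACK1, DKC1, further members listed by count, and the names in the make-up section). The members and lists were chosen with earlier results of these data known, and aliases of listed genes were added after names and UMI totals had been seen. Alternatives were TMM, DESeq2 1.42.0, no filter, no block, globin in the totals, other cell filters, depth, resolution and names, and each embryo left out. No genome of this build was used, so no sequence or coordinate is printed. Some of the genes that these rules name are not reported here.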

Additional observations from a re-analysis of the deposited data

Results flagged for a closer look

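RL37, the large subunit name left out by the rule, had 8821 UMIs in embryo 1 and 89229 in embryo 2, which is 295 and 2711 CPM, and it was flagged because its signal lies outside the comparisons and far above the limit that a count of 0 allows. The level was 9.18 times higher in embryo 2, while over the 50 abundant names this ratio ran from 0.734 (RS19) to 1.18 (RPS28). Of the 4 models of this name, 1 held 8818 and 89222 of the UMIs. In microglia-like cells RL37 had 236 and 2918 CPM, in erythroid-like cells 291 and 3089 and in cluster 11 549 and 5521, so the gap was present in each of these groups.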

How the results depend on the processing

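Each log2 ratio of the summed share kept its direction when 1 embryo was left out, with ranges of 0.11 to 0.12 (progenitors), -0.21 to -0.20 (dividing cells), -0.16 to -0.14 (nascent inhibitory), 0.17 to 0.21 (cortical), 0.22 to 0.23 (microglia) and 0.16 to 0.20 (erythroid). With 1 embryo no spread remains, so members could not be tested. The main log2 ratios, in this order, were 0.11, -0.21, -0.15, 0.19, 0.23 and 0.18. In cells with 2000 to 6000 non-globin UMIs the ratio was 0.031, -0.28, -0.12, 0.15 (microglia) and 0.14 (erythroid). In cells with at least 1000 genes it was 0.087, -0.25, -0.062, 0.15 (microglia) and 0.043 (erythroid), and at resolution 1.0 it was 0.069, -0.19, -0.29, -0.21 (cortical, turned), 0.17 and 0.13. Globin in the totals gave 0.11 (progenitors), -0.22 (dividing), 0.20 (microglia) and -2.88 (erythroid, turned). Without the highest Scrublet scores it was 0.10, -0.24, -0.17 (nascent) and 0.22 (erythroid), and with ribosomal protein genes among the variable genes -0.23 (dividing), -0.14 (nascent) and 0.15 (cortical). Names starting RPL or RPS alone gave 0.14 (progenitors) and 0.21 (microglia).

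For the number of members called, the pairing by embryo mattered: without the block 8 against 43 (dividing), 12 against 31 (nascent) and 5 against 35 (cortical) passed, and no other count moved by over 1.5 times. Names starting RPL or RPS alone are fewer by construction and gave 20 (progenitors), 27 (dividing), 20 (nascent), 22 (cortical), 24 (microglia) and 26 (erythroid). In the nascent comparison the count was 48 with DESeq2, 18 with at least 1000 genes and 54 at resolution 1.0. In the cortical one it was 35 at resolution 1.0, all lower. In the microglia one it was 20 in the 2000 to 6000 band, which held 21 microglia-like cells in each embryo. In the erythroid one, where the balance of higher and lower turned, it was 55 with TMM, 57 with DESeq2, 19 with at least 1000 genes and 24 in the 2000 to 6000 band, and 81 with globin in the totals. RL18 and RPL31 in microglia turned to 0.25 and 0.20 with DESeq2. The cause of these changes was not tested. Filtering and the choice of gene model changed no count by over 1.5 times. The 33 low names hold at most 9420 UMIs each, and how depth bears on them was not compared.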
